A study of Homo sapiens with 18 samples.

Results

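Cells hold their cholesterol level by a feedback loop in the endoplasmic reticulum. The transcription factors SREBP-1 and SREBP-2, encoded by SREBF1 and SREBF2, are made as membrane-bound precursors and are escorted by SCAP to the Golgi, where proteases release the active factor. When sterols are plentiful, SCAP is held back by the retention proteins INSIG1 and INSIG2, and INSIG1 is itself a well-known SREBP target. NPC1 and NPC2 move the cholesterol of endocytosed lipoproteins out of late endosomes and lysosomes, and STARD4 carries cholesterol between membranes through the cytosol. These 8 genes, listed by name for their known roles with earlier results of these data known, were followed in all 18 libraries, among 58884 gene identifiers in the count tables. The 8 hold no lipoprotein receptor, and receptors and other transport genes are described further on as a separate list.

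The libraries were poly-A RNA-seq of T47D, an estrogen receptor-positive luminal breast cancer cell line, in bulk. The WT cells (labelled T47D AAV) and the PARP1 KO cells (labelled T47D JL) were each 1 line, so the genotype and the line cannot be told apart. Each line was treated for 48 hours with DMSO, with niraparib at 10 µM or with olaparib at 10 µM, both inhibitors of the DNA repair enzymes PARP1 and PARP2, giving 6 groups of 3 libraries. The study's methods describe 3 culture dishes for each condition in its omics experiments, but no label ties a library to a dish. The p-values therefore measure the spread between these libraries, which may be technical.

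Library totals ran from 28890837 to 52251288 counts. PARP1 itself, the targeted gene, lay at 22.9 to 27.6 CPM (counts scaled to the size of the library) in the 9 PARP1 KO libraries and at 292 to 373 CPM in the 9 WT libraries. All 7 markers of the T47D line (ESR1, GATA3, FOXA1, KRT8, KRT18, KRT19 and EPCAM) were expressed, the lowest at 112 CPM. Of 6 markers of other cells, VIM, PTPRC, PECAM1, KRT5 and KRT14 stayed under 0.71 CPM, while COL1A1, a collagen of stromal cells, was at 88.3 to 153 CPM in every library. Each of the 8 genes was read 455 times or more in each library, and all 8 passed the filter on low counts. The chi-square between libraries of a group, per gene and about 1 where only counting noise separates them, ran from 3.13 to 18.999. WT DMSO replicate 1 stood apart from its group (18.999 and 17.5, against 3.28 between the other two), as did WT niraparib replicate 2 (12.2 and 16.8, against 3.41) and PARP1 KO niraparib replicate 3 (11.7 and 14.7, against 3.13). PARP1 KO olaparib replicates 1 and 3 differed by 18.3.

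In the count tables (GRCh38), SREBF1 (ENSG00000072310) lies at chr17:17810399-17837002 on the minus strand and SREBF2 (ENSG00000198911) at chr22:41833079-41907307 on the plus strand. SCAP (ENSG00000114650) lies at chr3:47413681-47477126, minus strand. INSIG1 (ENSG00000186480) and INSIG2 (ENSG00000125629) lie on the plus strand at chr7:155297776-155310235 and chr2:118088452-118110997. NPC1 (ENSG00000141458), NPC2 (ENSG00000119655) and STARD4 (ENSG00000164211) lie on the minus strand at chr18:23506184-23586506, chr14:74476192-74494177 and chr5:111496033-111512590. Genes on the opposite strand covered 2.18% to 6.92% of the exon bases of SREBF1, SREBF2, NPC1, NPC2 and STARD4, and reads had been counted by strand. Only NPC2 shared exon bases with a gene on its own strand, the microRNA gene MIR4709, over 2.62% of its exons.

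SREBPs bind sterol regulatory elements, of which CACCCCAC is the core of a classic form, and often act beside NF-Y, which binds CCAAT. Letter strings of 4 kinds were searched on both strands of the 250 bases before each RefSeq start (GRCh38.p14): CACCCCAC, its looser form CACNCCAC (which holds every CACCCCAC match), CCAAT, and the E-box CACGTG. Over 35116 promoters of 27305 genes, 2.43% held CACCCCAC, 4.87% held CACNCCAC, 32% held CCAAT and 6.34% held CACGTG. All 8 genes matched the promoter table, with 10 promoters in all, since INSIG2 and NPC2 have 2 each.

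The promoters of the 4 genes that fell with niraparib in WT cells are shown, 5′ to 3′ on the gene's strand, with matches to these strings in capitals. They are INSIG1 (chr7:155297628-155297877, plus), SREBF2 (chr22:41832855-41833104, plus), STARD4 (chr5:111512536-111512785, minus) and the upstream of 2 NPC2 promoters (chr14:74493513-74493762, minus).
INSIG1: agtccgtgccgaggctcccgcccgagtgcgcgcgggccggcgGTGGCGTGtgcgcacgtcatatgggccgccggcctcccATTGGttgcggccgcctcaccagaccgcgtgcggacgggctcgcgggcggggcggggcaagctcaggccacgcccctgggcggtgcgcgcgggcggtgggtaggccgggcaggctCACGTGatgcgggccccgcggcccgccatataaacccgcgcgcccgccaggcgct
SREBF2: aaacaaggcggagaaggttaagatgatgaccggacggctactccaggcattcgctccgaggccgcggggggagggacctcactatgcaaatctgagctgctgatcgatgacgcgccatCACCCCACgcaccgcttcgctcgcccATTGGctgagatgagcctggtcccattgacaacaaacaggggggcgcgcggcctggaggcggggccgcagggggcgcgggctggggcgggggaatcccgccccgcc
STARD4: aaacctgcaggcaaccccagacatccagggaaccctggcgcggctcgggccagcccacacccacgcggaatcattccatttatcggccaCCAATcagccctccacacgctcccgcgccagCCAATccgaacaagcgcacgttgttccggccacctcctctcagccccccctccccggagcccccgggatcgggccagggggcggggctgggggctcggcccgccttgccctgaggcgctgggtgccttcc
NPC2: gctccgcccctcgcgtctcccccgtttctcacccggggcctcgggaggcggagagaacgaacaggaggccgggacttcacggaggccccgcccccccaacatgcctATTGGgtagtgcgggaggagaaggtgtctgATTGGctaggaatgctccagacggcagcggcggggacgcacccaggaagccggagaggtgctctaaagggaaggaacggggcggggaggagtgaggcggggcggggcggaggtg

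Counted back from the start, the SREBF2 promoter held CACCCCAC at -132 to -125 and CCAAT, on the opposite strand, at -106 to -102. INSIG1 held a CACNCCAC match at -208 to -201 and CCAAT at -170 to -166, both on the opposite strand, and CACGTG at -55 to -50. STARD4 held CCAAT at -161 to -157 and at -130 to -126, and NPC2 held it on the opposite strand at -144 to -140 and at -114 to -110. Of the other genes, SCAP held CACGTG at -58 to -53, and none of the strings was found in the windows of SREBF1, INSIG2 and NPC1. CCAAT thus stood in the window of 4 of the 8 genes, CACNCCAC in 2, CACGTG in 2 and CACCCCAC in 1. A match is a string of letters and not a shown binding site.

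Levels were first compared between genes per kilobase of exon (RPKM) in WT cells with DMSO. NPC2 stood highest at 31.9 ± 2.83 RPKM (SD, n = 3), followed by SREBF2 at 28.0 ± 0.83 and INSIG1 at 22.2 ± 0.52. SCAP was at 13.7 ± 0.24 RPKM and SREBF1 at 12.8 ± 0.75, so the gene for SREBP-2 was read at 2.19 ± 0.099 times the level per length of the gene for SREBP-1. STARD4 followed at 7.32 ± 0.48 RPKM, NPC1 at 5.71 ± 0.092 and INSIG2 at 4.67 ± 0.11. INSIG1 was thus the major of the 2 retention genes, at 4.75 ± 0.0097 times INSIG2 per length. In the other groups the SD of this ratio was 0.14 to 0.89, so the small SD here is no measure of its precision.

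**Figure D1:**
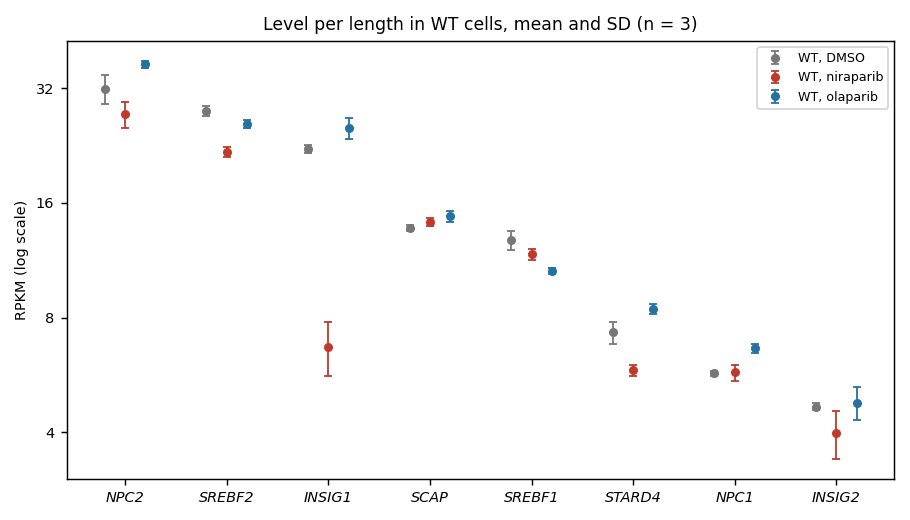
Level per length in RPKM (log scale) of the 8 genes in WT cells with DMSO (grey), niraparib (red) and olaparib (blue); points are means of 3 libraries and bars the SD. With niraparib INSIG1 moves from the third place, at 22.2 RPKM, to 6.71 RPKM.

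The first question was what niraparib did to these genes in WT cells. INSIG1 fell by 70.0%, and SREBF2, STARD4 and NPC2 fell by smaller amounts. A gene passed where its adjusted P value was below 0.05. By this rule 4 of 8 genes passed, against 38% of the 22446 genes tested, and 1 of 8 (INSIG1) also changed by over 1.5-fold, against 13.8%. The median log2 fold change of the 8 was -0.23, and that of all genes tested -0.02. These 4 genes also passed without WT DMSO replicate 1 and without WT niraparib replicate 2, with INSIG1 at -1.72 and -1.61, SREBF2 at -0.34 in both, STARD4 at -0.29 and -0.32, and NPC2 at -0.30 and -0.17 on the log2 scale.

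INSIG1, the SREBP target that retains SCAP, was at 83.2, 79.6 and 80.4 CPM in the DMSO libraries and at 28.1, 20.2 and 25.2 CPM with niraparib. The groups did not overlap, and the highest niraparib library lay far under the lowest DMSO library. The log2 fold change was -1.74 ± 0.10 (SE, adjusted P = 8.1e-08), a 3.33-fold lower level, with a 95% interval from -1.96 to -1.51. In bulk RNA, fewer cells expressing a gene and less of its RNA per cell cannot be told apart. Its relative INSIG2 was at 18.95, 18.2 and 18.3 CPM with DMSO and at 15.8, 13.4 and 17.9 CPM with niraparib. Those groups did not overlap either, but the log2 fold change of -0.24 ± 0.095 did not pass (adjusted P = 0.055). INSIG2 passed without WT niraparib replicate 3 (-0.34, adjusted P = 0.010), with upper-quartile scaling (adjusted P = 0.027) and with no filter on low counts (adjusted P = 0.035), and was at -0.13 without WT niraparib replicate 2 (adjusted P = 0.28).

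SREBF2, which encodes the SREBP that mainly drives cholesterol genes, was at 218, 207 and 208 CPM with DMSO and at 169.7, 159.8 and 164 CPM with niraparib. All 3 niraparib libraries lay under all 3 DMSO libraries, with a log2 fold change of -0.36 ± 0.046 (adjusted P = 1.4e-06), and the level fell by 22.2%. SREBF1, whose product mainly drives fatty acid genes, was at 107, 95.8 and 105 CPM with DMSO and at 90.8, 95.5 and 96.8 CPM with niraparib. These ranges overlapped, and the log2 fold change was -0.12 ± 0.050 (adjusted P = 0.058). It passed when WT DMSO replicate 2 (adjusted P = 0.017) or WT niraparib replicate 2 (adjusted P = 0.048) was left out, with upper-quartile scaling (adjusted P = 0.018) and with the filterByExpr count filter (adjusted P = 0.043). For SCAP, the escort of both factors, the log2 fold change was 0.05 ± 0.048 (adjusted P = 0.45), with a 95% interval from -0.05 to 0.15.

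Among the transport genes, STARD4 was at 44.2, 41.9 and 38.7 CPM with DMSO and at 32.3, 32.5 and 34.2 CPM with niraparib. The groups did not overlap, and STARD4 fell by 20.7% (log2 fold change -0.33 ± 0.059, adjusted P = 9.1e-05). NPC2, the soluble lysosomal protein that hands cholesterol to NPC1, was at 76.8, 90.1 and 89.7 CPM with DMSO and at 77.2, 66.5 and 75.9 CPM with niraparib. The lowest DMSO library and the highest niraparib library were nearly level, and NPC2 fell by 14.7% (log2 fold change -0.23 ± 0.066, adjusted P = 0.0089). Without WT DMSO replicate 2 the NPC2 change no longer passed (adjusted P = 0.053). NPC1, the membrane protein that receives that cholesterol, was at 55.3, 56.4 and 54.7 CPM with DMSO and at 58.0, 52.8 and 56.4 CPM with niraparib. Its log2 fold change was 0.0037 ± 0.053 (adjusted P = 0.97), with a 95% interval from -0.11 to 0.11.

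**Figure D2:**
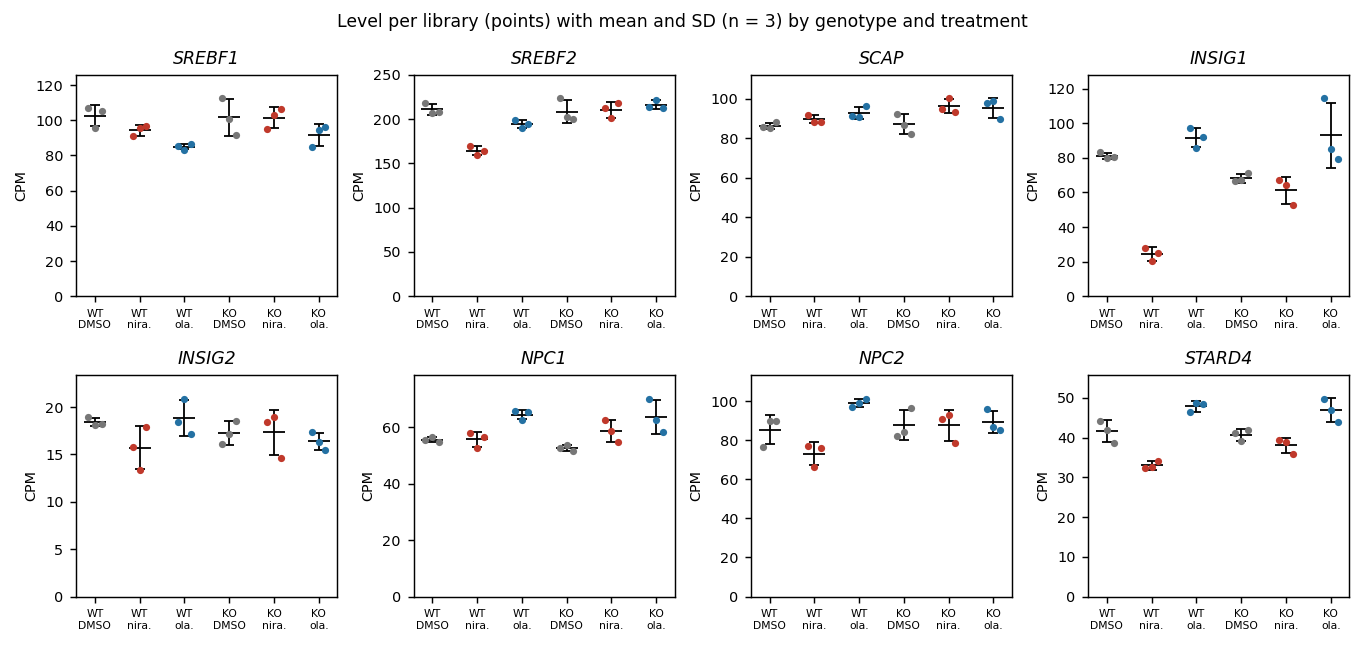
CPM of each of the 8 genes in every library (points), with the mean and SD of 3 libraries (black), for WT and PARP1 KO cells (KO) with DMSO (grey), niraparib (red, nira.) and olaparib (blue, ola.); each axis starts at 0. INSIG1 in WT cells with niraparib, at 20.2 to 28.1 CPM, stands under all other groups, of which the lowest library is at 52.5 CPM.

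With olaparib in WT cells none of the 8 changed by over 1.5-fold (edgeR; 6 had an unadjusted p below 0.05, and DESeq2 also gave 0), against 4.04% of the 22446 genes tested. By the adjusted P value 4 of 8 passed, against 19% of all genes, with 3 higher and 1 lower. SREBF1 fell by 16.8%, from 107, 95.8 and 105 CPM to 85.3, 83.3 and 86.7 CPM (log2 fold change -0.27 ± 0.050, adjusted P = 5.8e-04). The groups did not overlap. All 3 transport genes rose. NPC1 went to 65.7, 62.5 and 65.2 CPM, above every DMSO library (log2 fold change 0.22 ± 0.053, adjusted P = 0.0048).

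NPC2 reached 97.1, 98.9 and 101 CPM with olaparib (log2 fold change 0.21 ± 0.066, adjusted P = 0.026) and STARD4 reached 46.4, 48.8 and 48.6 CPM (log2 fold change 0.21 ± 0.059, adjusted P = 0.015). Neither gene overlapped its DMSO range. Both calls lay near the threshold and were lost in several alternatives. That of NPC2 was lost without WT olaparib replicate 1, 2 or 3 or without WT DMSO replicate 1 (log2 fold changes from 0.14 to 0.22, adjusted P from 0.063 to 0.11), and with all 18 libraries in the fit (0.21, adjusted P = 0.060). That of STARD4 was lost without WT olaparib replicate 2 or 3 or WT DMSO replicate 3 (log2 fold changes from 0.16 to 0.20, adjusted P from 0.060 to 0.11). With WT olaparib replicate 2 or 3 left out, 2 genes of the 8 passed in place of 4. INSIG1 was at 97.1, 85.9 and 92.2 CPM, all above its DMSO libraries, with a log2 fold change of 0.18 ± 0.095 that did not pass (adjusted P = 0.23). It passed with no filter on low counts (0.18, adjusted P = 0.024) and in a fit of the compared libraries alone (0.18, adjusted P = 0.015). For SREBF2 the log2 fold change was -0.11 ± 0.046 (adjusted P = 0.097), with groups that did not overlap. SREBF2 passed with upper-quartile scaling (-0.15, adjusted P = 0.017), DESeq2 (-0.12, adjusted P = 0.049) and the compared libraries alone (-0.12, adjusted P = 0.047). The log2 fold change was 0.11 ± 0.048 for SCAP (adjusted P = 0.13) and 0.04 ± 0.095 for INSIG2 (adjusted P = 0.84).

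The inhibitors were then compared with each other at their shared dose and time. The separate effects of the inhibitors used the same DMSO libraries, so this direct comparison is the test of their difference. In WT cells 7 of 8 genes passed, against 32.2% of all genes tested, and 1 of 8 by over 1.5-fold, against 8.95%. INSIG1 was lower with niraparib than with olaparib by a log2 fold change of -1.92 ± 0.10 (adjusted P = 6.7e-08). STARD4 (-0.54 ± 0.059, adjusted P = 2.8e-07) and NPC2 (-0.44 ± 0.066, adjusted P = 2.6e-05) followed, each with groups that did not overlap. SREBF2 was lower by -0.25 ± 0.046 (adjusted P = 1.9e-04) and NPC1 by -0.22 ± 0.053 (adjusted P = 0.0027) on the log2 scale.

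INSIG2 was lower with niraparib (log2 fold change -0.27 ± 0.095, adjusted P = 0.031) and SREBF1 was higher (0.14 ± 0.050, adjusted P = 0.032), and both calls lay near the threshold. That of INSIG2 was lost without WT olaparib replicate 1 or 2 or without WT niraparib replicate 1 or 2 (log2 fold changes from -0.29 to -0.16, adjusted P from 0.061 to 0.19). A block for the replicate number ended that INSIG2 call too (-0.28, adjusted P = 0.059). That of SREBF1 was lost without WT olaparib replicate 1, 2 or 3 or without WT niraparib replicate 3 (log2 fold changes from 0.13 to 0.16, adjusted P from 0.057 to 0.12), and also with no filter on low counts (0.15, adjusted P = 0.051) and with all 18 libraries in the fit (0.15, adjusted P = 0.077). SCAP differed by -0.06 ± 0.048 (adjusted P = 0.42), with a 95% interval from -0.16 to 0.04 on the log2 scale.

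**Figure D3:**
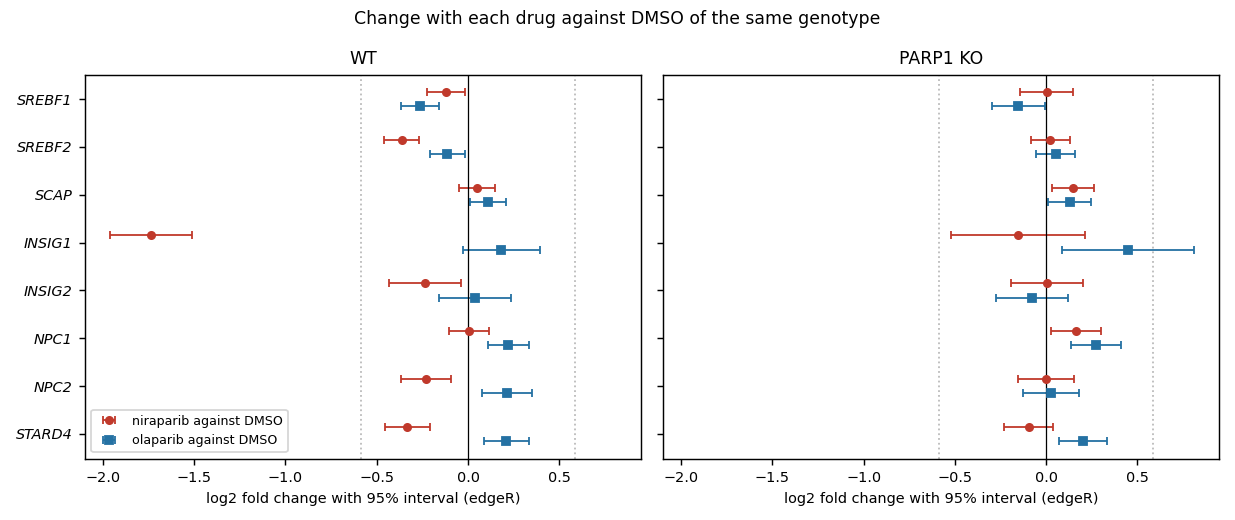
Log2 fold change (x axis) of each gene, niraparib as red circles and olaparib as blue squares, against DMSO in WT cells (left) and PARP1 KO cells (right), with 95% intervals from edgeR; dotted lines mark 1.5-fold. INSIG1 with niraparib in WT cells, at -1.74, is the only interval that lies wholly past a dotted line.

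In PARP1 KO cells none of the 8 genes passed with niraparib (edgeR; 2 had an unadjusted p below 0.05, and DESeq2 also gave 0). Among all 22037 genes tested, 0.109% passed the adjusted P value and 0.0136% also changed by over 1.5-fold. INSIG1 was at 66.3, 67.2 and 71.0 CPM with DMSO and at 67.0, 64.2 and 52.5 CPM with niraparib. The groups overlapped, and the log2 fold change was -0.15 ± 0.15 (adjusted P = 0.83), with a 95% interval from -0.52 to 0.21. Without PARP1 KO niraparib replicate 3 the log2 fold change was -0.05 (adjusted P = 0.97). SREBF2 was at 223, 202 and 199.5 CPM with DMSO and at 213, 201 and 219 CPM with niraparib (log2 fold change 0.02 ± 0.051, adjusted P = 0.94). The 2 genes with an unadjusted p below 0.05 were SCAP, with a log2 fold change of 0.15 ± 0.057 (adjusted P = 0.42), and NPC1, with 0.16 ± 0.066 (adjusted P = 0.45). For STARD4 it was -0.09 ± 0.064 (adjusted P = 0.71), and for SREBF1, INSIG2 and NPC2 it lay between 0.0011 and 0.0041.

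With olaparib in PARP1 KO cells 1 of 8 genes passed, against 8.29% of all genes tested, and none changed by over 1.5-fold, against 0.803% (edgeR; 5 of 8 had an unadjusted p below 0.05, and DESeq2 gave 3 and 0). NPC1 rose from 52.7, 53.5 and 51.5 CPM to 70.1, 62.5 and 58.4 CPM, without overlap (log2 fold change 0.28 ± 0.066, adjusted P = 0.011). Without PARP1 KO olaparib replicate 1, the highest of these libraries, the NPC1 change no longer passed (0.20, adjusted P = 0.064). INSIG1 was at 114, 85.3 and 79.3 CPM, all above its DMSO libraries, and again replicate 1 stood highest. Its log2 fold change was 0.45 ± 0.15 (adjusted P = 0.15), and 0.27 without that library. INSIG1 passed with DESeq2 (0.45, adjusted P = 0.040). STARD4 was at 49.8, 47.1 and 43.9 CPM against 41.2, 39.1 and 41.9 CPM with DMSO, also without overlap (log2 fold change 0.20 ± 0.064, adjusted P = 0.051). It passed without PARP1 KO olaparib replicate 3 (adjusted P = 0.025) and with DESeq2 (0.035). It also passed with filterByExpr (0.041), with all 18 libraries in the fit (0.032) and with the compared libraries alone (0.048).

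Between the inhibitors in PARP1 KO cells, 1 of 8 genes passed, against 10% of all genes tested, and none by over 1.5-fold, against 1.07% (edgeR; 3 of 8 had an unadjusted p below 0.05, and DESeq2 gave 2 and 1). STARD4 was lower with niraparib than with olaparib (log2 fold change -0.30 ± 0.064, adjusted P = 0.0042). INSIG1 was close to the threshold at -0.60 ± 0.15 (adjusted P = 0.056), with groups that did not overlap. It passed without PARP1 KO olaparib replicate 1 (-0.42, adjusted P = 0.0044) and without PARP1 KO olaparib replicate 3 (-0.70, adjusted P = 0.028), in the latter case also past 1.5-fold. Leaving out each of the other 4 libraries of the comparison in turn did not make it pass, among them PARP1 KO niraparib replicate 3 (-0.49, adjusted P = 0.11). The other 6 genes lay between -0.11 and 0.15 on the log2 scale.

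With DMSO alone none of the 8 differed between PARP1 KO and WT cells, whether or not a 1.5-fold change was asked for (edgeR; 0 had an unadjusted p below 0.05, and DESeq2 also gave 0). Of all 24675 genes tested, 1.39% passed the adjusted P value and 0.146% also differed by over 1.5-fold. INSIG1 had the lowest value, with all 3 PARP1 KO libraries under all 3 WT libraries and a log2 fold change of -0.25 ± 0.14 (adjusted P = 0.47). In a fit of these 6 libraries alone its adjusted P value was 0.029. For the other 7 genes the log2 fold change lay between -0.09 and 0.04.

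Whether the effect of niraparib differed between the 2 lines was tested with the interaction term, the log2 fold change in PARP1 KO cells minus that in WT cells. Of the 8 genes 2 passed, against 22.9% of all genes tested, and 1 of 8 exceeded 1.5-fold, against 8.88%. The term was 1.58 ± 0.20 for INSIG1 (adjusted P = 6.5e-05) and 0.38 ± 0.069 for SREBF2 (adjusted P = 6.4e-05). STARD4 just missed the threshold (0.23 ± 0.088, adjusted P = 0.051), and it passed without WT DMSO replicate 3, PARP1 KO DMSO replicate 3 or PARP1 KO niraparib replicate 3 (adjusted P from 0.022 to 0.050). STARD4 also passed with DESeq2 (adjusted P = 0.028), RLE scaling (0.040), upper-quartile scaling (0.012) and filterByExpr (0.028). For NPC2 the term was 0.22 ± 0.11 (adjusted P = 0.15), and it passed without WT DMSO replicate 1, PARP1 KO DMSO replicate 3 or PARP1 KO niraparib replicate 3 (adjusted P from 0.031 to 0.039). With PARP1 KO niraparib replicate 3 or PARP1 KO DMSO replicate 3 left out, 4 of the 8 passed. The terms of INSIG2 (0.23), NPC1 (0.15), SREBF1 (0.12) and SCAP (0.09) did not pass.

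For olaparib no interaction term of the 8 passed, whether or not 1.5-fold was asked for (edgeR; 1 had an unadjusted p below 0.05, and DESeq2 also gave 0), against 2.27% and 0.657% of all genes tested. The gene with an unadjusted p below 0.05 was SREBF2, at 0.17 ± 0.069 (adjusted P = 0.21). INSIG1 was at 0.27 ± 0.20 (adjusted P = 0.55), with a 95% interval from -0.16 to 0.69, and NPC1 at 0.06 ± 0.085 (adjusted P = 0.79). The rise of NPC1 with olaparib, 0.22 in WT and 0.28 in PARP1 KO cells, was thus not shown to differ between the lines.

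Across all 6 groups, INSIG1 varied most, 5.65-fold between its lowest and highest library, while the other 7 varied 1.22-fold (SCAP) to 1.56-fold (INSIG2). By group mean INSIG1 ran from 93.0 CPM in PARP1 KO cells with olaparib through 91.7 (WT, olaparib), 81.1 (WT, DMSO), 68.2 (PARP1 KO, DMSO) and 61.2 (PARP1 KO, niraparib) to 24.5 CPM (WT, niraparib). Of neighbours in that order, the 2 olaparib groups overlapped, as did PARP1 KO cells with DMSO and with niraparib. SREBF2 was lowest in WT cells with niraparib at a mean of 164 CPM, next in WT cells with olaparib at 195 CPM, and at 208 to 216 CPM in the other 4 groups, each overlapping its neighbour. STARD4 and NPC2 also had their lowest means in WT cells with niraparib (33.0 and 73.2 CPM) and their highest in WT cells with olaparib (47.9 and 99.1 CPM). NPC1 was lowest in PARP1 KO cells with DMSO (52.6 CPM) and highest in WT cells with olaparib (64.5 CPM). For SREBF1, SCAP and INSIG2 every neighbour in the order of the groups overlapped.

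Ratios within a library compare related genes without reference to the library size. INSIG1 over INSIG2, per length, was 4.75, 4.75 and 4.76 in WT cells with DMSO and 1.92, 1.64 and 1.52 with niraparib. The balance of the 2 retention genes thus moved towards INSIG2, although INSIG1 stayed the higher. With olaparib the ratio was 5.69, 4.45 and 5.80 in WT cells. In PARP1 KO cells it was 4.47, 4.23 and 4.14 with DMSO, 3.93, 3.67 and 3.89 with niraparib, and 7.14, 5.66 and 5.54 with olaparib. The exact permutation test, 2-sided, gave p = 0.1 for niraparib against DMSO in each line and for olaparib in PARP1 KO cells, the smallest p that 3 libraries against 3 allow, and p = 0.4 for olaparib in WT cells.

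SREBF2 over SREBF1, per length, averaged 2.19 ± 0.099 (SD, n = 3) in WT cells with DMSO, 1.86 ± 0.11 with niraparib and 2.43 ± 0.046 with olaparib, without overlap between the groups. In PARP1 KO cells it was 2.18 ± 0.11, 2.21 ± 0.16 and 2.51 ± 0.17. NPC2 over NPC1, the 2 partners of lysosomal cholesterol export, averaged 5.59 ± 0.49 in WT cells with DMSO, 4.76 ± 0.17 with niraparib and 5.58 ± 0.19 with olaparib. Its means in PARP1 KO cells were 6.05 ± 0.64 with DMSO, 5.41 ± 0.29 with niraparib and 5.10 ± 0.18 with olaparib.

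**Figure D4:**
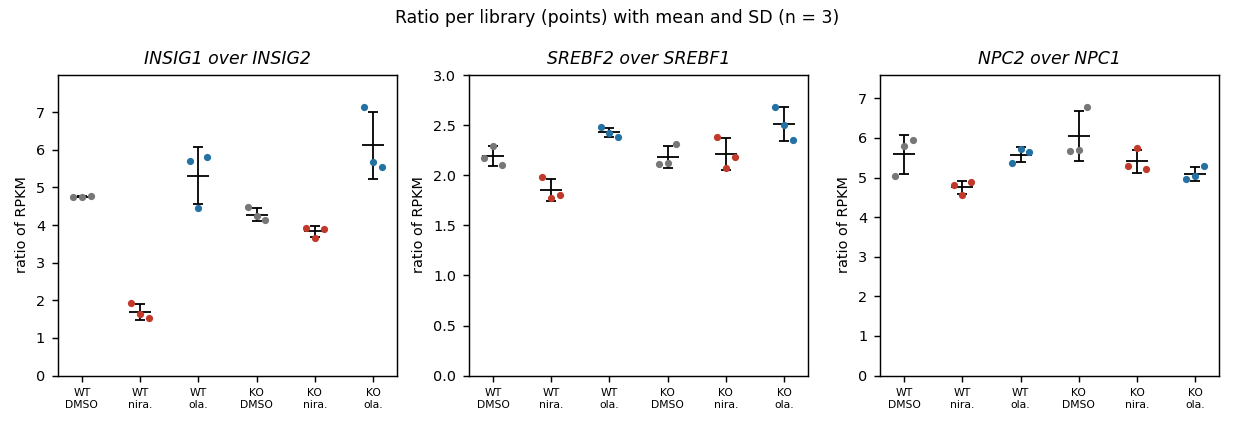
Ratio of RPKM of INSIG1 to INSIG2, SREBF2 to SREBF1 and NPC2 to NPC1 in every library (points), with the mean and SD of 3 libraries (black), by genotype (WT and PARP1 KO, KO) and treatment; axes start at 0. INSIG1 over INSIG2 lies at 1.52 to 1.92 in WT cells with niraparib and at 3.67 or above in all other libraries.

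Other genes of SREBP processing and turnover (22 genes, none among the 8) moved in part with niraparib in WT cells: 2 rose, 10 fell and 10 did not pass, with a median log2 fold change of -0.16 against -0.02 for all genes. The 12 that passed were 54.5% of the list, against 38% of all genes. RNF145, a ubiquitin ligase of the endoplasmic reticulum that acts on SCAP, fell from 92.4 ± 1.10 to 54.1 ± 5.39 CPM (SD, n = 3, log2 fold change -0.78, adjusted P = 1.6e-09). MBTPS1, the site-1 protease that makes the first cut in SREBPs, fell from 597 ± 26.02 to 404 ± 26.3 CPM (-0.56, adjusted P = 1.7e-08). With olaparib 2 of 22 rose and none fell in WT cells (9.09%, against 19% of all genes), and the median was -0.0024.

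None of the 22 passed with niraparib in PARP1 KO cells (edgeR; 4 had an unadjusted p below 0.05, and DESeq2 also gave 0), against 0.109% of all genes, and 2 rose with olaparib (9.09%, against 8.29%). The niraparib interaction passed for 8 of the 22 (36.4%, against 22.9%), among them RNF145 (0.60, adjusted P = 1.7e-06). The 2 inhibitors differed for 13 of 22 in WT cells (59.1%, against 32.2%), 11 of them lower with niraparib, and for 4 of 22 in PARP1 KO cells (18.2%, against 10%), all lower with niraparib. RNF145 was lower with niraparib than with olaparib in WT cells by -0.78 on the log2 scale (adjusted P = 3.2e-09).

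Of 33 other genes of sterol transport and lipoprotein uptake, 32 were tested in WT cells, and with niraparib 3 rose, 14 fell and 15 did not pass (median log2 fold change -0.12). Thus 53.1% passed, against 38% of all genes. MYLIP, a ubiquitin ligase that sends lipoprotein receptors to the lysosome, rose from 14.3 ± 0.58 to 29.1 ± 1.64 CPM (log2 fold change 1.03, adjusted P = 3.3e-10). The lipoprotein receptor LRP8 fell from 23.5 ± 0.96 to 12.8 ± 0.22 CPM (-0.88, adjusted P = 3.4e-09). OSBP, an oxysterol-binding protein that moves cholesterol to the Golgi, fell by 0.62 on the log2 scale (adjusted P = 1.1e-09). STARD5, another sterol carrier of the STARD4 family, fell by 0.67 (adjusted P = 2.2e-04).

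With olaparib in WT cells 5 of the 32 rose (15.6%, against 19% of all genes), none fell and the median was 0.08. MYLIP rose by 0.68 on the log2 scale (adjusted P = 1.5e-06) and VLDLR, another lipoprotein receptor, by 0.72 (adjusted P = 2.2e-04). Of the 32 genes 20 differed between the inhibitors (62.5%, against 32.2%), 18 of them lower with niraparib, among them VLDLR (-0.76, adjusted P = 4.2e-05), LRP8 (-0.69, adjusted P = 2.3e-07) and TMEM97, a binding partner of NPC1 (-0.59, adjusted P = 2.9e-08). In PARP1 KO cells, where 31 were tested, none passed with niraparib (edgeR; 5 had an unadjusted p below 0.05, and DESeq2 also gave 0), against 0.109% of all genes, and 3 rose with olaparib (9.68%, against 8.29%). The niraparib interaction passed for 10 of 32 (31.2%, against 22.9%), with MYLIP at -1.03 (adjusted P = 1.3e-08), LRP8 at 0.80 (adjusted P = 3.0e-07) and OSBP at 0.64 (adjusted P = 4.3e-09). The olaparib interaction passed for MYLIP alone of the 32 (-0.61, adjusted P = 0.0021), against 2.27% of all genes.

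Enzymes that SREBPs are known to induce (26 genes of sterol and fatty acid synthesis) were also followed: with niraparib in WT cells 20 fell, 3 rose and 3 did not pass, with a median log2 fold change of -0.42. The 23 that passed were 88.5% of the list, against 38% of all genes. The largest falls were those of MSMO1, a methylsterol oxidase (-1.21, adjusted P = 3.2e-09), SCD, the stearoyl-CoA desaturase (-0.98, adjusted P = 4.7e-12), FASN, the fatty acid synthase (-0.92, adjusted P = 3.5e-11), HMGCS1, of the mevalonate pathway (-0.89, adjusted P = 1.5e-11), and SQLE, the squalene epoxidase (-0.86, adjusted P = 3.3e-11). INSIG1 fell further than any of the 26. With olaparib 1 rose and 4 fell, 19.2% of the list and near the 19% of all genes, and in PARP1 KO cells none passed with niraparib (edgeR; 1 had an unadjusted p below 0.05, and DESeq2 also gave 0), against 0.109% of all genes, while 3 rose and 2 fell with olaparib (19.2%, against 8.29%). The niraparib interaction passed for 22 of the 26 (84.6%, against 22.9%), 20 of them above 0. Between the inhibitors 20 of the 26 differed in WT cells (76.9%, against 32.2%), 18 of them lower with niraparib, and 6 in PARP1 KO cells (23.1%, against 10%), 3 in each direction. The WT difference was -1.25 for MSMO1 (adjusted P = 5.3e-09) and -0.68 for IDI1, an isomerase of the mevalonate pathway (adjusted P = 2.8e-09).

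**Figure D5:**
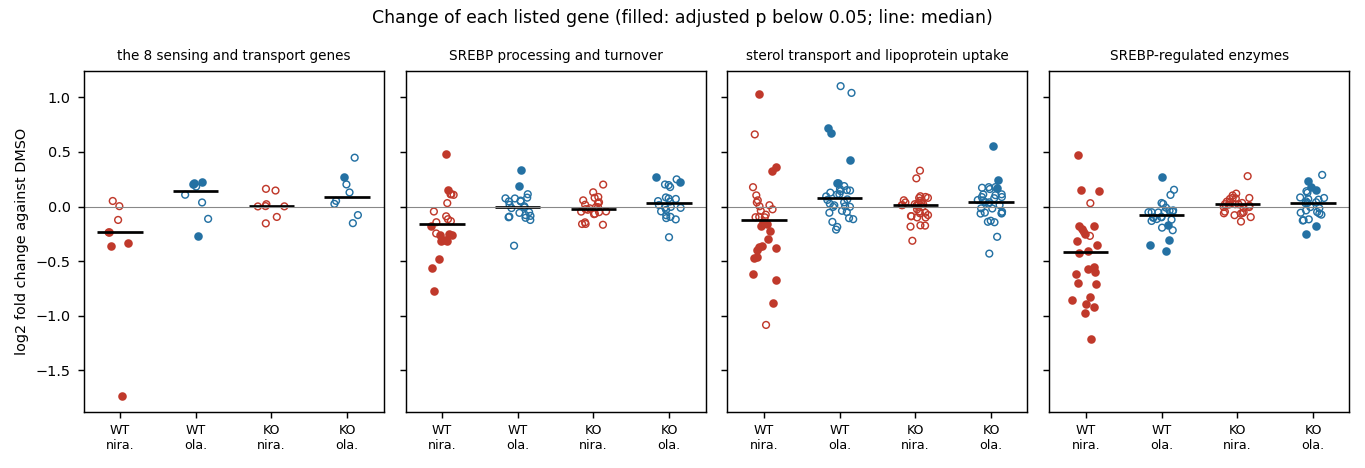
Log2 fold change against DMSO (y axis) of each gene of 4 lists, niraparib in red (nira.) and olaparib in blue (ola.), in WT and PARP1 KO (KO) cells; filled points passed the adjusted P value and black lines are medians. With niraparib the medians in WT cells are -0.23 for the 8 genes and -0.42 for the 26 enzymes, and in PARP1 KO cells no point of any list is filled.

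Markers of the T47D line also moved in WT cells. Of 7, 6 fell with each inhibitor, 85.7% against 38% of all genes with niraparib and 19% with olaparib (the median changes were -0.34 and -0.29 on the log2 scale for niraparib and olaparib), and their summed level was 10802 to 11510 CPM with DMSO, 8141 to 8992 CPM with niraparib and 8779 to 9113 CPM with olaparib. GATA3, a luminal transcription factor, fell by 0.74 on the log2 scale with niraparib (adjusted P = 6.0e-11), and ESR1, the estrogen receptor, by 0.56 (adjusted P = 2.2e-09). In PARP1 KO cells none of the 7 passed with niraparib (edgeR; 2 had an unadjusted p below 0.05, and DESeq2 gave 1), against 0.109% of all genes, 4 fell with olaparib (57.1%, against 8.29%), and the summed level was 12188 to 12865, 11271 to 11619 and 10396 to 11186 CPM with DMSO, niraparib and olaparib. The 6 markers of other cells summed to 88.8 to 154 CPM over all libraries, nearly all of it COL1A1. The part of these shifts in the changes of the 8 genes was not tested.

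Over the 18 libraries, log2 CPM of INSIG1 moved most closely with that of STARD4 among the 8 (Pearson r = 0.90), followed by SREBF2 and NPC2 (both r = 0.80). Within the 9 PARP1 KO libraries the correlation with STARD4 was 0.97 and that with SREBF2 was 0.11, while within the 9 WT libraries both were above 0.91. SREBF1 moved against NPC1 (r = -0.71). These libraries share their groups and scaling, so the values describe likeness only. In a search of 13526 genes (mean level of 1 CPM or more), those most like INSIG1 over the 18 libraries included MSMO1 (r = 0.99, and 0.98 within PARP1 KO cells) and DAXX, a histone chaperone (r = 0.99, and 0.97 within PARP1 KO cells). DAXX averaged 103 ± 2.07 CPM in WT cells with DMSO, 63.8 ± 3.47 CPM with niraparib and 103 ± 0.89 CPM with olaparib, and 90.9 to 107 CPM by group in PARP1 KO cells.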

How the data were processed

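Bulk poly-A RNA-seq of 18 T47D libraries, 3 in each of 6 groups set by the labelled genotype and treatment, was used. The authors trimmed reads with Trimmomatic, aligned them to GRCh38 with STAR, marked duplicates with Picard and counted primary alignments over exons by strand (reverse) with featureCounts 2.0.0 and the Ensembl 96 annotation. The deposited values are raw gene counts (28890837 to 52251288 per library). Replicate libraries differed by more than counting noise in every pair, so none was merged.

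Genes with over 10 counts in total in a fit were tested with the quasi-likelihood test of edgeR 4.0.16 (TMM scaling, R 4.3.3), with Benjamini-Hochberg adjustment over all genes tested. Separate fits of 9 libraries served each genotype, and a fit of all 18 served the genotype comparison and the interactions. Genes passed where the adjusted P value was under 0.05, with those past 1.5-fold counted apart. SE is the log2 fold change over the root of F. CPM use TMM library sizes over the 18 libraries, and RPKM divide CPM by exon length free of same-strand overlap. Ratios were tested by exact permutation (scipy 1.17.1). The fit was tested on simulated data.

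The 8 genes, the other lists and the tests were chosen with earlier results of these data known. Besides the 8, list genes were named when past both thresholds, up to 5 per list and comparison by size, with the 2 largest changes per list for niraparib in WT cells, and the 3 genes most like INSIG1 by correlation. Alternatives were RLE and upper-quartile scaling, other count filters, DESeq2 1.42.0, a replicate block, other sets of libraries, other thresholds and each library left out. Of the genes these rules name, 2 are not reported here. Promoters came from RefSeq (GRCh38.p14).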

Additional observations from a re-analysis of the deposited data

Results flagged for a closer look

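The effect of niraparib differed between the WT and PARP1 KO lines, by the interaction term of the edgeR fit, for 2 of the 8 genes. For INSIG1 the term was 1.58 on the log2 scale (adjusted P = 6.5e-05): all 3 niraparib libraries lay under all 3 DMSO libraries in WT cells, and the groups overlapped in PARP1 KO cells. For SREBF2 it was 0.38 (adjusted P = 6.4e-05), again with no overlap in WT cells and with overlap in PARP1 KO cells. Across all genes tested 22.9% passed the same test. STARD4 (adjusted P = 0.051 in the edgeR fit) passed as well with DESeq2, RLE or upper-quartile scaling, and filterByExpr. Without WT DMSO replicate 1, WT niraparib replicate 2 or PARP1 KO niraparib replicate 3, the libraries that stood apart from their groups, both genes still passed.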

How the results depend on the processing

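INSIG1 passed both thresholds with niraparib in WT cells, between the inhibitors in WT cells and in the niraparib interaction under every alternative run. Of 1080 alternative values of single genes, 961 kept their direction and their side of the adjusted P value, 36 gained a call and 21 lost theirs, and 62 changed sign without passing before or after (log2 fold changes from -0.07 to 0.06). The cause of the changes was not tested.

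Without the 1.5-fold rule the count of the 8 genes was 4 for niraparib in WT, 4 for olaparib in WT, 7 between the inhibitors in WT, 1 for olaparib in PARP1 KO, 1 between the inhibitors in PARP1 KO and 2 for the niraparib interaction, and at a log2 fold change beyond 1.5 INSIG1 kept its 3 calls. For niraparib in WT the count of 4 went to 6 with upper-quartile scaling and to 5 with filterByExpr, with no count filter and without WT niraparib replicate 2 or 3. For olaparib in WT it went to 6 with the compared libraries alone, to 5 with upper-quartile scaling, no count filter or DESeq2, and to 3 with all 18 libraries. For olaparib in PARP1 KO, genes passing the adjusted P value went from 1 to 2 with filterByExpr, with all 18 libraries and with the compared libraries alone, and to 3 with DESeq2. Between the inhibitors in PARP1 KO, filterByExpr, no count filter, DESeq2 and all 18 libraries each gave 2 passing genes, of which 1 exceeded 1.5-fold. For PARP1 KO against WT with DMSO, the compared libraries alone gave 1. For the niraparib interaction DESeq2 gave 3, and STARD4 was also added by RLE scaling, upper-quartile scaling and filterByExpr.

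With 1 library left out, the genes passing the adjusted P value ranged from 2 to 4 for olaparib in WT, from 0 to 2 for olaparib in PARP1 KO, from 1 to 2 between the inhibitors in PARP1 KO (0 to 1 past 1.5-fold) and from 2 to 4 for the niraparib interaction. A group left with 2 libraries borrows its spread from the others.

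Replicate numbers did not pair the samples: deviations of same-numbered libraries correlated from -0.54 to 0.55, over 0.1 in 5 of 18 pairs. A replicate block gave 2 passing genes between the inhibitors in PARP1 KO, 1 of them past 1.5-fold (INSIG1, -0.59), and ended the call of INSIG2 between the inhibitors in WT (adjusted P = 0.059).

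Over all genes, counts past both thresholds moved by over 1.5 times for niraparib in PARP1 KO (3, against 16 with no count filter, 8 with DESeq2 and 6 with all 18 libraries), for PARP1 KO against WT (36, against 84 with no filter) and for the olaparib interaction (162, against 271 with no filter). At the adjusted P value alone, they moved for niraparib in PARP1 KO (24, against 137, 104 and 70, and 11 with the block), for PARP1 KO against WT (344, against 601 with no filter, 696 with DESeq2 and 220 with the compared libraries alone) and for the olaparib interaction (559, against 1011 with DESeq2). With 1 library left out, counts past both thresholds fell to as few as 5 for PARP1 KO against WT (without WT DMSO replicate 1; 11 to 16 without a PARP1 KO DMSO library), from 177 to 100 for olaparib in PARP1 KO (without PARP1 KO DMSO replicate 2), from 236 to 144 between the inhibitors in PARP1 KO (without PARP1 KO niraparib replicate 2) and for the olaparib interaction to 86 when WT DMSO replicate 1 was omitted, rising to 273 when PARP1 KO olaparib replicate 1 was. Under the same omissions the counts by the adjusted P value alone were 51, 792 against 1827, 1142 against 2203, 292 and 899, and for niraparib in PARP1 KO the lowest was 8 (without PARP1 KO niraparib replicate 1 or PARP1 KO DMSO replicate 2). Shares of all genes set beside these comparisons rest on these counts. Scaling moved no median by over 0.1. Each group had 3 libraries and each genotype 1 line, which limits what these tests cover.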
